A study of Mus musculus with 38 samples.

Results

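The 43 genes described here encode proteins that copy DNA in S phase. They were chosen by gene symbol for their roles, and all 43 were found through their Entrez Gene identifiers among 24028 genes in the deposited count table. All 43 also passed the filter on low counts, which left 13650 genes tested. They were ordered by role into 5 origin licensing genes (Orc1, Orc6, Cdc6, Cdt1, Gmnn), 6 subunits of the MCM helicase (Mcm2 to Mcm7), 6 helicase activation genes (Cdc45, Mcm10, Gins1, Gins2, Gins3, Gins4), 4 genes of polymerase alpha-primase (Pola1, Pola2, Prim1, Prim2) and 5 of polymerases delta and epsilon (Pold1, Pold2, Pold3, Pole, Pole2). The others are 7 genes of the sliding clamp and its loaders (Pcna, Rfc1 to Rfc5, Dscc1), 3 of the single-strand binding protein RPA (Rpa1, Rpa2, Rpa3), 3 of Okazaki fragment processing (Fen1, Lig1, Rnaseh2a), 2 of fork protection (Tipin, Timeless) and 2 of chromatin assembly (Chaf1a, Chaf1b).

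As background, the origin recognition complex with Cdc6 and Cdt1 loads the MCM helicase onto DNA in G1, and Gmnn (geminin) restrains Cdt1 once S phase has begun. Cdc45 and the GINS complex join MCM to form the active helicase, with Mcm10 needed for its activation. Polymerase alpha-primase lays down primers, polymerases epsilon and delta extend them, the RFC complex loads the PCNA clamp, and RPA coats exposed single strands. Fen1, Lig1 and RNase H2 finish Okazaki fragments, Timeless and Tipin travel with the fork, and the Chaf1a and Chaf1b subunits of CAF-1 deposit histones behind it. Resting T cells are in G0 and enter the cell cycle only after stimulation through the T cell receptor. CD28 is the main costimulatory receptor of naive CD4+ T cells, and many replication genes are known targets of E2F transcription factors.

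The study asked how the microRNA cluster miR-17∼92 relates to costimulation, with 38 libraries of mouse CD4+ T cells in 10 groups. The genotype labelled rescue carried CD28-/-, CD4cre and a CAG promoter-driven miR-17∼92 transgene in the Rosa26 locus behind a loxP-flanked stop, and had 3 libraries in each state. The other genotypes had 4 libraries in each state: CD28-/- (B6.CD28-/-), T1792delta/delta (CD4cre with loxP-flanked miR-17∼92), T1792tg/tg (CD4cre with the same Rosa26 transgene and CD28 left in place) and wt. CD4cre acts from the CD4-expressing stage in the thymus onward, in CD8+ T cells too, and no group with CD4cre alone was analysed here. Cells were naive CD4+ T cells isolated from the spleen and lymph nodes of single mice of either sex, with no age given. They were either taken directly (naive) or cultured for 24 h with plate-bound antibodies to CD3 (0.5 µg/ml) and CD28 (0.2 µg/ml) and with interleukin-2 (50 U/ml). No unstimulated 24 h culture was analysed here, so stimulation, interleukin-2 and time in culture cannot be told apart.

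Libraries held 19427291 to 28020721 counts, and no member had a count below 19 in any library. In the cells labelled CD28-/- the Cd28 gene was still counted, with a mean of 539 ± 40.4 CPM at 24 h against 342 ± 35.5 CPM in wt cells (CPM are counts divided by the scaled library size, SD, n = 4 each), so a count over the whole gene does not check that label and the label is kept as given. The miR-17 precursor checked the transgene, with 6.88 ± 1.84 CPM in naive cells labelled rescue (n = 3), 6.55 ± 0.900 CPM in T1792tg/tg, 0.0641 ± 0.0766 CPM in T1792delta/delta and 0.334 ± 0.0969 CPM in wt cells (n = 4 each). At 24 h it had 0.571 ± 0.0399 CPM in rescue (n = 3) and 0.624 ± 0.231 CPM in T1792tg/tg cells (n = 4), far below their naive levels. The 4 T1792delta/delta libraries at 24 h held no count of it, against 0.131 ± 0.0188 CPM in wt cells. Its host gene Mir17hg had 172 ± 11.8 CPM in T1792delta/delta and 20.7 ± 2.44 CPM in wt cells at 24 h. The Rosa26 transcript Gt(ROSA)26Sor had 13.6 ± 1.40 CPM in naive T1792delta/delta and 0.215 ± 0.101 CPM in naive wt cells, although the labels name no Rosa26 allele for T1792delta/delta, and the reason was not tested. Naive CD28-/- replicate 1 and naive rescue replicate 2 stood apart from their groups. Their 16 mitosis genes summed to 266 and 288 CPM, against 130.3 to 138 CPM in the other naive CD28-/- libraries and 139 and 146 CPM in the other naive rescue libraries, and they were the highest library of their group for 33 and 31 of the 43 members. Results that rest on these 2 libraries are given with and without them. The library kit keeps strand, but the strand setting of the counting was not given in the sources used here, so reads of genes that overlap on opposite strands cannot be told apart. By GENCODE vM21, 10 members share at least 10% of their exon bases with another gene, most of all Fen1 with Gm10143 (78.8%), Gins2 with Gse1 (70.7%) and Chaf1a with Ubxn6 (33.6%). By sex-linked genes, 3 of 3 rescue, 4 of 4 CD28-/-, 2 of 4 T1792delta/delta, 1 of 4 T1792tg/tg and 3 of 4 wt libraries were female, in each state.

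Set on a scale per kilobase of gene length, at 24 h the median of the 43 members' mean levels was 50.8 CPM per kb in rescue, 41.7 in CD28-/-, 66.3 in T1792delta/delta, 59.6 in T1792tg/tg and 67.3 in wt cells. In naive cells the same median lay between 10.0 CPM per kb in wt and 11.4 in T1792tg/tg cells. Pcna, the clamp, was the most abundant member per kb in every group, at 370.4 to 621 CPM per kb at 24 h and 144 to 184 in naive cells. The least abundant were Gins3 at 24 h, at 10.7 to 16.3 CPM per kb, and Mcm10 in naive cells, at 0.321 to 0.447.

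All 43 replication genes rose between the naive state and 24 h in every genotype, and in every genotype the 24 h libraries lay above the naive libraries for all 43, against 37.8% to 39.4% of all genes. A gene is called here at an adjusted p below 0.05 in edgeR's quasi-likelihood test, adjusted by Benjamini-Hochberg over all genes tested. The share of all genes called higher was 38.8% in rescue, 39.7% in CD28-/-, 41.4% in T1792delta/delta, 41% in T1792tg/tg and 41.3% in wt cells. The median log2 fold change of the members was 2.51 in rescue, 2.30 in CD28-/-, 3.18 in T1792delta/delta, 2.64 in T1792tg/tg and 2.98 in wt cells, while that of all genes lay between -0.07 and -0.04. In bulk RNA, a change in the share of cells that have entered the cycle and a change in RNA per cell cannot be told apart. P-values set a change against the spread between libraries of single mice, estimated over all groups together. Naive and 24 h libraries were treated as unpaired.

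The size of the response varied between roles, a difference that was not tested. In wt cells the largest role median belonged to helicase activation (5.02), and the smallest to RPA (2.39) and polymerases delta and epsilon (2.47). Mcm10 showed the largest response of any member in all 5 genotypes. In wt cells it had 159, 166, 163 and 139 CPM at 24 h and 2.11, 2.31, 4.18 and 2.29 CPM in naive cells, with every 24 h library far above every naive one (log2 fold change 5.83 ± 0.22 (SE), adjusted p = 6.23e-23). Gins2, a GINS subunit, followed in wt cells with 105, 103, 98.4 and 89.2 CPM at 24 h and 1.66, 1.53, 2.59 and 2.14 CPM in naive cells (log2 fold change 5.64 ± 0.14 (SE), adjusted p = 6.95e-28). Chaf1a, the large CAF-1 subunit, was the third, with 199.6, 199, 205 and 181 CPM at 24 h and 4.26, 4.37, 6.07 and 3.20 CPM in naive wt cells (log2 fold change 5.44 ± 0.19 (SE), adjusted p = 3.58e-24). In T1792tg/tg cells Orc1 took that place (5.03) and in rescue cells Gins2 was again the second (5.00). Rpa1, the large RPA subunit, changed least in every genotype: it had 439, 428, 418 and 389.9 CPM at 24 h and 285, 251, 252 and 274 CPM in naive wt cells, with high levels already in the naive state (log2 fold change 0.66 ± 0.06 (SE), adjusted p = 1.07e-12). After Rpa1, Cdt1 and Rfc1, the large subunit of the clamp loader, changed least in wt cells. Rfc1 had 251, 263, 259 and 248 CPM at 24 h and 95.4, 101, 107 and 93.3 CPM in naive cells (log2 fold change 1.36 ± 0.06 (SE), adjusted p = 4.65e-21). The licensing factors spanned a wide range in wt cells, with Cdt1 at 162, 155, 153 and 154 CPM at 24 h and 70.9, 85.0, 72.6 and 73.3 CPM in naive cells (log2 fold change 1.05 ± 0.08 (SE), adjusted p = 1.11e-14). Its partner Cdc6 had 154, 147, 149 and 133 CPM at 24 h and 4.55, 4.45, 7.70 and 5.24 CPM in naive wt cells (log2 fold change 4.72 ± 0.19 (SE), adjusted p = 3.99e-22). Timeless and its partner Tipin also differed, at 1.69 and 3.81 in wt cells. Leaving out naive CD28-/- replicate 1 gave a Mcm10 response of 5.77 in CD28-/- cells, where all libraries gave 5.13, and leaving out naive rescue replicate 2 gave 6.59 in rescue cells, where all libraries gave 6.12.

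**Figure D1:**
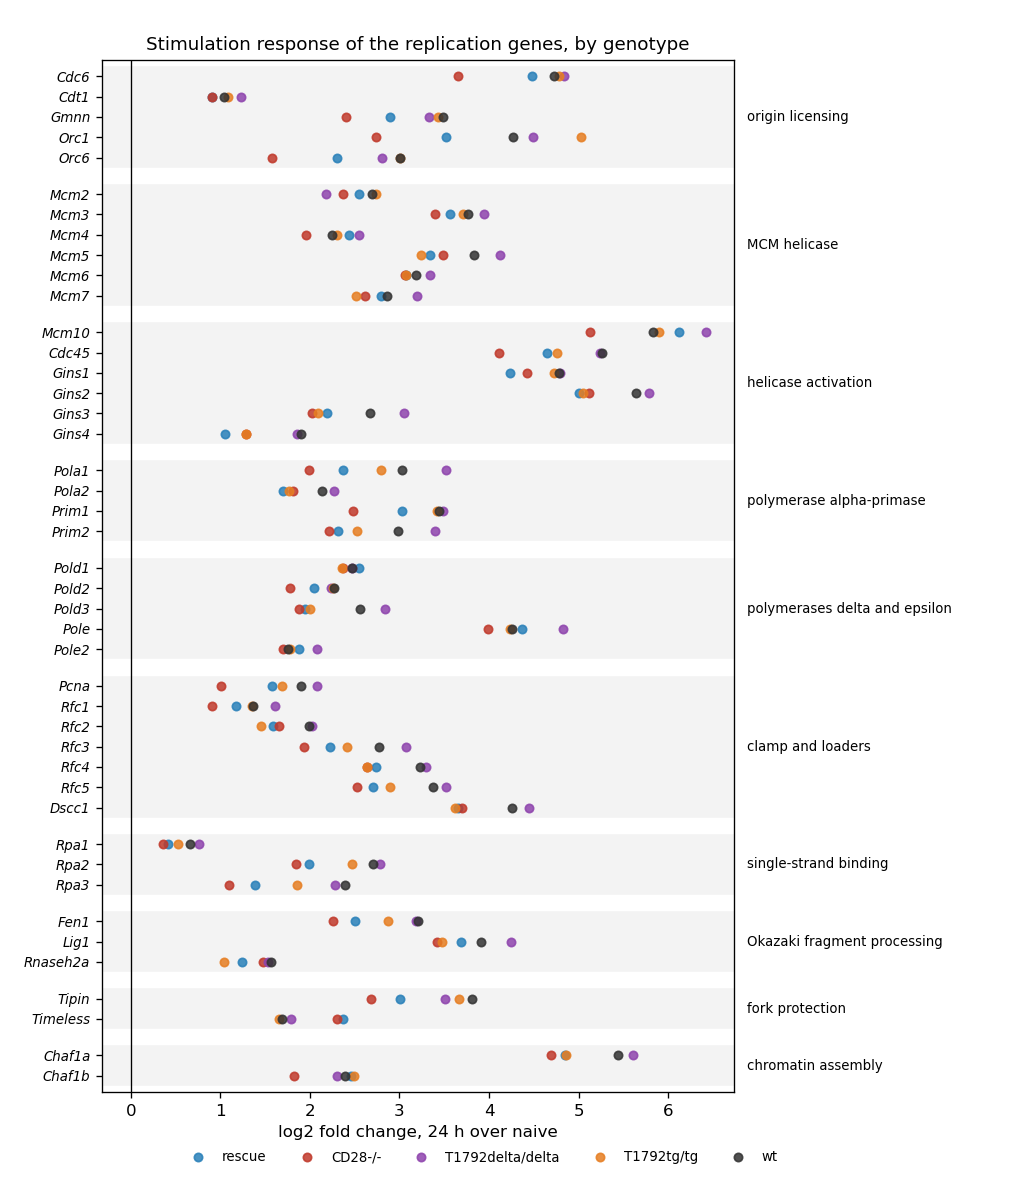
Log2 fold change of each of the 43 genes at 24 h over the naive state in the 5 genotypes, from the fit over all libraries, with genes grouped by role. Every point lies above 0, from 0.36 for Rpa1 in CD28-/- cells to 6.42 for Mcm10 in T1792delta/delta cells.

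At 24 h most of the machinery was lower in libraries labelled CD28-/- than in wt libraries. Of the 43 genes, 36 fell and 1 rose, and 6 were not called. The share of all genes called was 27.8% lower and 23.7% higher, so this was a comparison in which much of the transcriptome differed. The median log2 fold change of the members was -0.54, against -0.03 over all genes. For 37 members every CD28-/- library lay below every wt library (29.6% of all genes) and for 1 every CD28-/- library lay above (24.5%). The summed level of the 43 genes was 8338 ± 176 CPM in CD28-/- and 10674 ± 539 CPM in wt cells at 24 h (SD, n = 4 each).

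The promoters shown next belong to the 3 genes with the lowest and the 3 with the highest log2 fold change in this comparison among members with a RefSeq promoter entry (GRCm38.p6, a window that lies mostly upstream of the annotated start). They are shown because these members lie at the ends of the range in this comparison. Capitals mark matches to the E2F words TTTCCCGC, TTTCGCGC, TTTGCCGC and TTTGGCGC on either strand, of which 2 in Mcm6 overlap each other.
Orc6 promoter, chr8:85299382-85299681, plus strand: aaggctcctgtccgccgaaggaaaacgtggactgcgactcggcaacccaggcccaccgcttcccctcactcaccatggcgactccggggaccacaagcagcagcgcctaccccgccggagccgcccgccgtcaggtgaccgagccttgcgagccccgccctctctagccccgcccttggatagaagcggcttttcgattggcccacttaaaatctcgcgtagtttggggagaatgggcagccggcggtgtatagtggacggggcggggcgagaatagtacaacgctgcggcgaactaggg
Orc1 promoter, chr4:108579204-108579503, plus strand: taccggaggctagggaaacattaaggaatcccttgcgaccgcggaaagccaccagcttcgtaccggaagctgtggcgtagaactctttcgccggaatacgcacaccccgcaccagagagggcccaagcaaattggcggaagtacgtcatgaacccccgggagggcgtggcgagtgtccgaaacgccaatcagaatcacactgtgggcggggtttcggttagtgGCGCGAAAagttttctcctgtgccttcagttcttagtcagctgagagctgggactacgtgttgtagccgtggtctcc
Cdc6 promoter, chr11:98907901-98908200, plus strand: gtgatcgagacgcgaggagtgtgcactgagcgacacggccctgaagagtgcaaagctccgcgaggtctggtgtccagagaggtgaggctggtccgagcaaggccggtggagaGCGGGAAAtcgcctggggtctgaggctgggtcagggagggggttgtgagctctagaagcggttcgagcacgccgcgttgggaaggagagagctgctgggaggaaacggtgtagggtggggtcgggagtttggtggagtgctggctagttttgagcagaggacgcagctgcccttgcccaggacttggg
Mcm6 promoter, chr1:128359656-128359955, minus strand: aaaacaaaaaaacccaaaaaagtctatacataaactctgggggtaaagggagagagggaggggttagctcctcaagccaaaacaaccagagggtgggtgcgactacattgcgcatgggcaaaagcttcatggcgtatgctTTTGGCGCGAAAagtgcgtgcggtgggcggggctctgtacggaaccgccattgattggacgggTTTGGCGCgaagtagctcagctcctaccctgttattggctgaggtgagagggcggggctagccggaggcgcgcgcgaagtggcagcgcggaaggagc
Mcm2 promoter, chr6:88898731-88899030, minus strand: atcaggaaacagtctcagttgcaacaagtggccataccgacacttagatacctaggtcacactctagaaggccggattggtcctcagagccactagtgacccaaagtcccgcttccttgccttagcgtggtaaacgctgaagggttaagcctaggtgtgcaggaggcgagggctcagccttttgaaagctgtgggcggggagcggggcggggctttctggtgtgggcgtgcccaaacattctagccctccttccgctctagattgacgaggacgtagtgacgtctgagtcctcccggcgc
Timeless promoter, chr10:128237816-128238115, plus strand: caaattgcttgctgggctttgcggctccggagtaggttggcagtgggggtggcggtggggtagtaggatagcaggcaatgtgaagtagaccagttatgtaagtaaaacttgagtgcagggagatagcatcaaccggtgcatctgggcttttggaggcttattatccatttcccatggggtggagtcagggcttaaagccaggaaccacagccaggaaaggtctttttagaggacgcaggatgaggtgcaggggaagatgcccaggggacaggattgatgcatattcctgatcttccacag
Orc1 and Cdc6 each held 1 such word and Mcm6 held 3, while Orc6, Mcm2 and Timeless held none. Across the 33 members with an entry, 13 promoters (39.4%) held at least 1 of these words, against 626 of all 27025 promoters (2.32%). The word CCAAT, on either strand, which can share at most 1 base with an E2F word, was in 21 of the 33 (63.6%) and in 37.9% of all promoters. A match is a description of letters and says nothing of binding.

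All 5 licensing genes fell in CD28-/- cells, with the largest role median (-1.0). Orc6, a subunit of the origin recognition complex, had 81.6, 78.1, 79.0 and 80.7 CPM in CD28-/- and 184, 185, 178 and 169 CPM in wt libraries at 24 h. The 4 CD28-/- libraries were close to one another and far below the lowest wt library (log2 fold change -1.16 ± 0.08 (SE), adjusted p = 7.15e-14). Orc1, its largest subunit, had 36.0, 38.6, 36.6 and 32.2 CPM in CD28-/- and 71.9, 79.6, 78.0 and 68.5 CPM in wt libraries, again without overlap (log2 fold change -1.05 ± 0.13 (SE), adjusted p = 2.13e-08). Cdc6 had 74.8, 72.1, 72.7 and 72.4 CPM in CD28-/- and 154, 147, 149 and 133 CPM in wt libraries (log2 fold change -1.0 ± 0.16 (SE), adjusted p = 1.99e-06). On a linear scale the level in CD28-/- cells was 0.447 of the wt level for Orc6, 0.481 for Orc1 and 0.501 for Cdc6. Geminin (Gmnn) fell by a smaller amount (log2 fold change -0.74 ± 0.10 (SE), adjusted p = 2.96e-07). Cdt1, the factor that geminin binds, fell least, with 131, 130.3, 120.4 and 121 CPM in CD28-/- and 162, 155, 153 and 154 CPM in wt libraries (log2 fold change -0.31 ± 0.08 (SE), adjusted p = 0.000919).

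The MCM helicase subunits, which Cdc6 and Cdt1 load, gave smaller values than the licensing genes, a difference between roles that was not tested. Of the 6, Mcm3 and Mcm4 fell, and the role median was -0.13. Mcm3 had 724, 800.1, 758 and 752 CPM in CD28-/- and 945, 907, 919.5 and 854 CPM in wt libraries, without overlap (log2 fold change -0.26 ± 0.06 (SE), adjusted p = 0.000243). Mcm4 had 596, 649, 627 and 591 CPM in CD28-/- and 745, 727, 709.6 and 675 CPM in wt libraries (log2 fold change -0.21 ± 0.07 (SE), adjusted p = 0.00619). In both genes the change was small beside that of the licensing genes. Mcm6 had 817, 882, 869.8 and 842 CPM in CD28-/- and 936, 898, 889 and 803 CPM in wt libraries, and the groups overlapped (log2 fold change -0.05 ± 0.06 (SE), adjusted p = 0.558, 95% interval -0.18 to 0.08). Mcm2 had 488, 515, 489 and 488 CPM in CD28-/- and 489, 459.6, 476 and 433 CPM in wt libraries, also overlapping (log2 fold change 0.09 ± 0.07 (SE), adjusted p = 0.271, 95% interval -0.05 to 0.23). The intervals for Mcm5 and Mcm7 were -0.30 to 0.04 and -0.29 to 0.06. Mcm2 to Mcm7 made up 45.6 to 47.2% of the members' summed CPM in CD28-/- libraries and 39.1 to 39.9% in wt libraries at 24 h, ranges that do not overlap, while the naive ranges were 28.9 to 30.9% and 28.2 to 30.2%. At 24 h this share was 43.6 to 44.7% in rescue, 38.6 to 41.1% in T1792delta/delta and 39.4 to 42.1% in T1792tg/tg libraries.

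All 6 helicase activation genes fell (median -0.57). Mcm10 fell by 0.90 on the log2 scale (adjusted p = 2.31e-05). Cdc45 had 93.1, 91.6, 86.8 and 85.8 CPM in CD28-/- and 170.0, 168, 155 and 133 CPM in wt libraries (log2 fold change -0.81 ± 0.14 (SE), adjusted p = 6.05e-06). Among the GINS genes the changes were smaller, from -0.60 for Gins3 to -0.37 for Gins4, and Gins1 had 40.4, 41.2, 40.8 and 40.9 CPM in CD28-/- and 56.4, 57.7, 51.8 and 52.9 CPM in wt libraries (log2 fold change -0.42 ± 0.13 (SE), adjusted p = 0.0089).

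All 4 genes of polymerase alpha-primase fell together (median -0.65). Of polymerases delta and epsilon only the 3 delta genes were called. The uncalled epsilon genes Pole (-0.22) and Pole2 (-0.21) were as low as the called Pold1 (-0.18). The primase subunit Prim2 had 73.4, 70.4, 65.6 and 66.0 CPM in CD28-/- and 119.9, 115, 106 and 95 CPM in wt libraries (log2 fold change -0.66 ± 0.09 (SE), adjusted p = 8.41e-08). Pola1, the catalytic subunit of polymerase alpha, varied more, with 108, 84.5, 104 and 89.5 CPM in CD28-/- and 158, 164, 156 and 134 CPM in wt libraries, still apart (log2 fold change -0.66 ± 0.11 (SE), adjusted p = 7.51e-06). The polymerase delta subunits Pold2 and Pold3 fell, Pold3 with 118, 125, 124 and 116 CPM in CD28-/- and 175, 176, 169.6 and 169 CPM in wt libraries (log2 fold change -0.51 ± 0.06 (SE), adjusted p = 1.79e-08). Pold1, the catalytic subunit of polymerase delta, fell least of the called genes, with 228, 238, 217 and 229.8 CPM in CD28-/- and 267, 257, 266 and 246 CPM in wt libraries (log2 fold change -0.18 ± 0.07 (SE), adjusted p = 0.0304). Pold1 lost its call in 4 of 8 fits that each left out a library. Pole, the catalytic subunit of polymerase epsilon, had 171, 174, 162 and 144 CPM in CD28-/- and 191, 204, 193 and 171 CPM in wt libraries, overlapping and not called (log2 fold change -0.22 ± 0.11 (SE), adjusted p = 0.101, 95% interval -0.45 to 0.01). Its partner Pole2 was not called either (log2 fold change -0.21 ± 0.09 (SE), adjusted p = 0.0539), although the groups did not overlap. With only these 2 groups fitted, Pole was called (-0.18, adjusted p = 0.0243).

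The 7 genes of the clamp and its loaders all fell (median -0.54). Pcna had 464, 463, 460.4 and 479 CPM in CD28-/- and 748, 756, 727 and 661 CPM in wt libraries, with little spread among the CD28-/- libraries (log2 fold change -0.63 ± 0.09 (SE), adjusted p = 6.08e-07). Rfc5 showed the largest change among the loaders, with 75.3, 81.4, 78.2 and 75.2 CPM in CD28-/- and 140.4, 139, 127 and 116 CPM in wt libraries (log2 fold change -0.75 ± 0.08 (SE), adjusted p = 1.51e-09). Rfc4 had 80.8, 81.6, 84.0 and 79.1 CPM in CD28-/- and 119, 109, 105 and 91.7 CPM in wt libraries, and was called with the largest p of this role (log2 fold change -0.38 ± 0.13 (SE), adjusted p = 0.0125). All 3 RPA genes fell, Rpa2 with 147, 151, 147 and 142 CPM in CD28-/- and 240.4, 247, 233 and 239 CPM in wt libraries (log2 fold change -0.71 ± 0.08 (SE), adjusted p = 3.55e-09). The small subunit Rpa3 fell by 0.86 on the log2 scale. The large subunit Rpa1 fell less, with 336, 352, 331 and 338 CPM in CD28-/- and 439, 428, 418 and 389.9 CPM in wt libraries (log2 fold change -0.30 ± 0.06 (SE), adjusted p = 3.89e-05). All 3 Okazaki genes fell as well, Fen1 with 178, 192, 181 and 192 CPM in CD28-/- and 312, 298, 292 and 269 CPM in wt libraries (log2 fold change -0.66 ± 0.09 (SE), adjusted p = 2.11e-07). Lig1, the ligase, fell by 0.43 on the log2 scale. Rnaseh2a, a subunit of RNase H2, had 59.3, 60.2, 57.6 and 57.5 CPM in CD28-/- and 69.7, 68.3, 68.5 and 69.9 CPM in wt libraries, a smaller difference without overlap (log2 fold change -0.24 ± 0.07 (SE), adjusted p = 0.00591).

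Both CAF-1 subunits fell by about the same amount. Chaf1b had 70.9, 71.1, 64.1 and 68.4 CPM in CD28-/- and 111, 107, 96.8 and 89.8 CPM in wt libraries (log2 fold change -0.56 ± 0.08 (SE), adjusted p = 7.85e-07). Chaf1a had 127, 139, 131 and 129.9 CPM in CD28-/- and 199.6, 199, 205 and 181 CPM in wt libraries (log2 fold change -0.58 ± 0.15 (SE), adjusted p = 0.00113). For each of them the highest CD28-/- library was below the lowest wt library.

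The fork protection partners moved in opposite directions. Tipin had 152, 146, 151 and 164 CPM in CD28-/- and 288, 304, 283 and 302 CPM in wt libraries, and fell (log2 fold change -0.94 ± 0.11 (SE), adjusted p = 7.8e-09). Timeless had 175, 181, 179 and 173 CPM in CD28-/- and 145, 148, 151 and 158 CPM in wt libraries, and rose (log2 fold change 0.23 ± 0.05 (SE), adjusted p = 0.000595). The lowest CD28-/- library was above the highest wt library for Timeless, and the highest CD28-/- library far below the lowest wt library for Tipin. No other member was called higher.

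**Figure D2:**
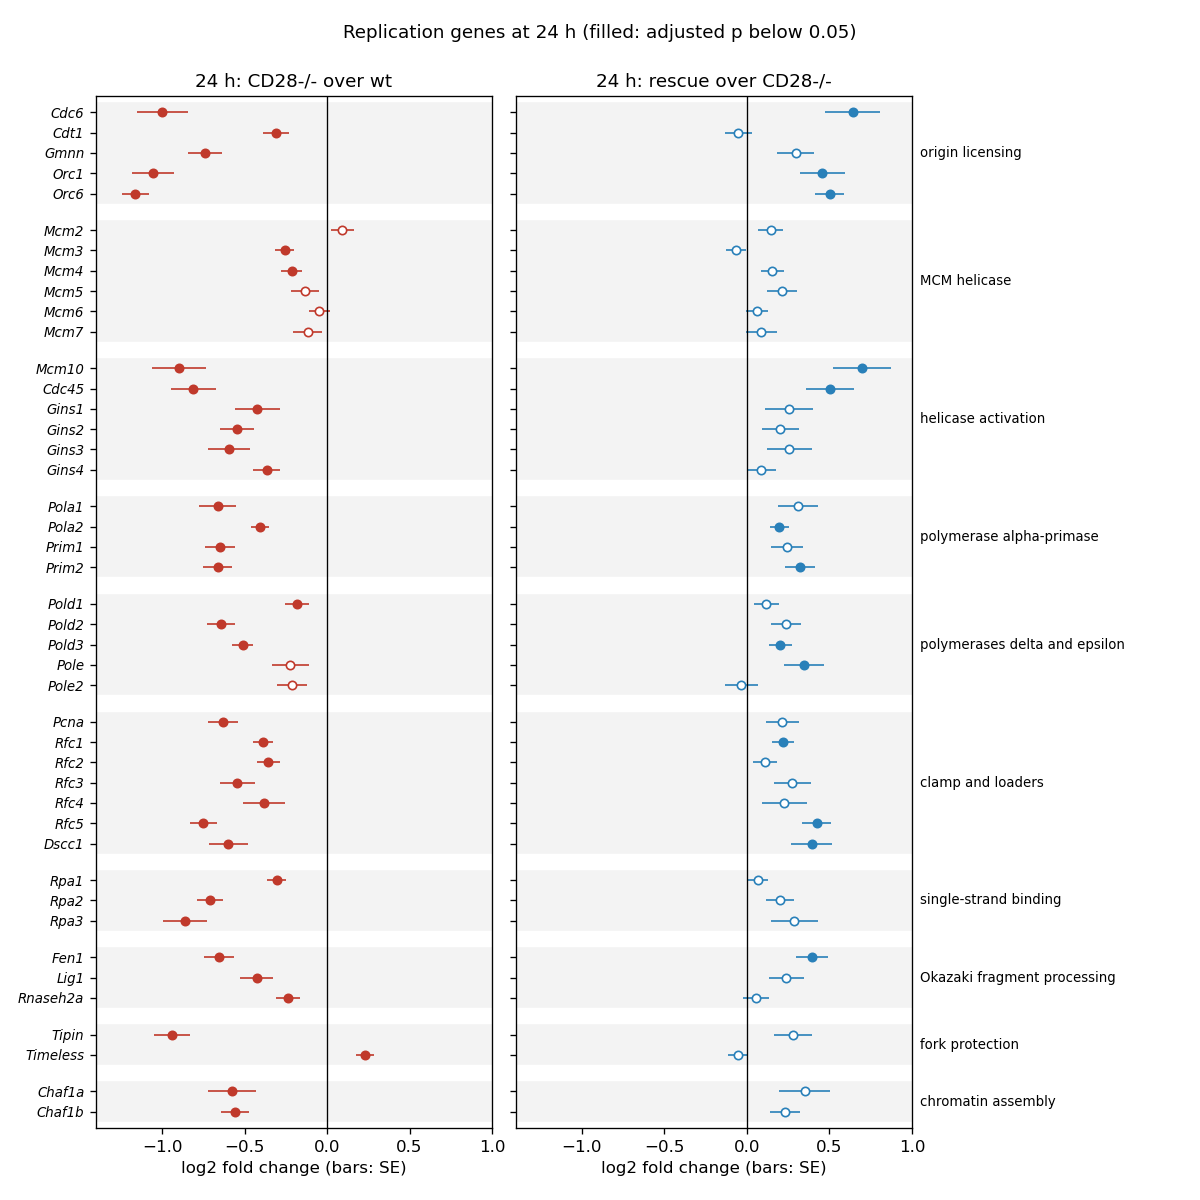
Log2 fold changes at 24 h of the 43 genes by role, CD28-/- over wt on the left and rescue over CD28-/- on the right; bars are standard errors and filled points have an adjusted p below 0.05. On the left 36 filled points lie below 0 and Timeless lies above it at 0.23, and on the right all 13 filled points lie above 0, up to 0.70 for Mcm10; the CD28-/- libraries enter both panels.

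Marker genes of cell types moved in the same comparison. At 24 h the 8 T cell markers summed to 3011 to 3487 CPM in CD28-/- and 2209 to 2618 CPM in wt libraries, with 7 of 8 higher. Il7r rose most of them (log2 fold change 2.37). All 8 fell from the naive state to 24 h in wt cells (median -1.28), so this list also moved with stimulation. The 8 B cell markers summed to 95.4 to 133 CPM in CD28-/- and 39.9 to 96.0 CPM in wt libraries, with 4 of 8 higher. The 10 myeloid markers summed to 37.1 to 45.2 CPM in CD28-/- and 38.9 to 45.4 CPM in wt libraries, with 3 of 10 higher. The 7 CD8 and NK markers summed to 33.1 to 35.2 CPM in CD28-/- and 36.6 to 48.3 CPM in wt libraries, with 1 higher and 4 lower, and none of 3 red cell markers was called. No marker was at 0 in all libraries of either group. Their part in the result was not tested. With a term for sex 38 members were called, and leaving out any library left 35 to 38.

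**Figure D3:**
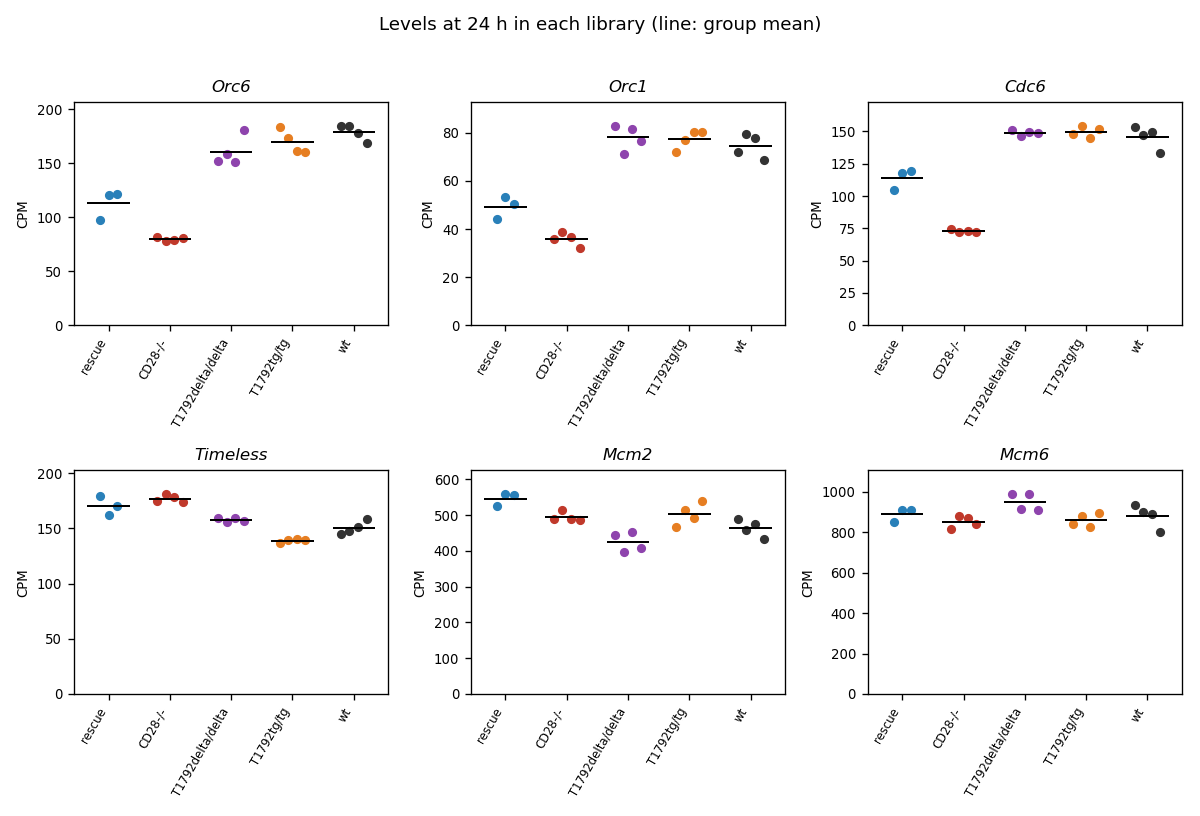
Levels at 24 h in CPM of Orc6, Orc1, Cdc6, Timeless, Mcm2 and Mcm6. Points are libraries and lines are group means, for rescue (n = 3), CD28-/-, T1792delta/delta, T1792tg/tg and wt (n = 4 each). The CD28-/- libraries are the lowest for the 3 licensing genes, with Orc6 at 78.1 to 81.6 CPM against 169 to 185 CPM in wt, and overlap the wt libraries for Mcm2 and Mcm6.

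At 24 h the rescue genotype had higher levels of 13 replication genes than CD28-/- cells and lower levels of none. The share of all genes called was 9.52% higher and 8.86% lower, and the median log2 fold change of the members was 0.23, against 0.01 over all genes. The comparison shares the CD28-/- libraries with that of CD28-/- against wt. For 33 members all rescue libraries lay above all CD28-/- libraries (19.3% of all genes). The summed level of the 43 genes at 24 h was 9403 ± 336 CPM in rescue cells (SD, n = 3) and 8338 ± 176 CPM in CD28-/- cells (SD, n = 4).

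The genes that rose were spread over the roles, but no MCM, RPA, fork protection or CAF-1 gene was called. Mcm10 had 123, 145 and 139 CPM in rescue and 85.2, 87.0, 81.8 and 81.5 CPM in CD28-/- libraries (log2 fold change 0.70 ± 0.18 (SE), adjusted p = 0.00441). Cdc6 had 105, 118 and 119 CPM in rescue and 74.8, 72.1, 72.7 and 72.4 CPM in CD28-/- libraries (log2 fold change 0.64 ± 0.17 (SE), adjusted p = 0.00569). Orc6 had 97.4, 120.4 and 121 CPM in rescue and 81.6, 78.1, 79.0 and 80.7 CPM in CD28-/- libraries (log2 fold change 0.50 ± 0.09 (SE), adjusted p = 6.44e-05). In all 3 genes the groups did not overlap, and the rescue libraries stayed below every wt library for Orc6 and Cdc6. Orc1 rose by 0.46 on the log2 scale. Cdc45 had 114, 129 and 137 CPM in rescue and 93.1, 91.6, 86.8 and 85.8 CPM in CD28-/- libraries (log2 fold change 0.50 ± 0.15 (SE), adjusted p = 0.0132). Rfc5 had 97.8, 109.9 and 104 CPM in rescue and 75.3, 81.4, 78.2 and 75.2 CPM in CD28-/- libraries, and was the loader that rose most (log2 fold change 0.42 ± 0.09 (SE), adjusted p = 0.000548). Rfc1 (0.22) and Dscc1 (0.39), a subunit of an alternative clamp loader, rose too. Fen1 had 226, 262 and 245 CPM in rescue and 178, 192, 181 and 192 CPM in CD28-/- libraries (log2 fold change 0.40 ± 0.10 (SE), adjusted p = 0.00329). The polymerase genes that rose were Pole (0.34), Prim2 (0.32), Pold3 (0.20) and Pola2 (0.20), the last with 155, 157 and 161 CPM in rescue and 139, 141, 136 and 133 CPM in CD28-/- libraries. Cdt1 had 121, 115 and 127 CPM in rescue and 131, 130.3, 120.4 and 121 CPM in CD28-/- libraries, overlapping (log2 fold change -0.05 ± 0.08 (SE), adjusted p = 0.733, 95% interval -0.22 to 0.12). For Timeless the interval was -0.17 to 0.07 and for Mcm3 -0.19 to 0.06. The count of 13 depended on single libraries and on the fit: it was 8 without 24 h CD28-/- replicate 4, 6 without 24 h rescue replicate 2 and 5 without 24 h rescue replicate 3, 17 in DESeq2 and 30 when only the compared groups were fitted. In DESeq2 Mcm10 was not called (adjusted p = 0.0529). The CD8 and NK markers summed to 60.4 to 72.3 CPM in rescue and 33.1 to 35.2 CPM in CD28-/- libraries. Of the 7, 2 were called higher, 6 were positive and 1 negative, from -0.30 for Klrd1 to 1.93 for Eomes. The T cell markers summed to 2565 to 2991 CPM in rescue and 3011 to 3487 CPM in CD28-/- libraries, with 5 of 8 called lower. The part of either list in the result was not tested.

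Set against wt cells at 24 h, rescue cells were lower in 23 replication genes and higher in 2, with 17.7% of all genes lower and 17.4% higher. The median log2 fold change of the members was -0.27, against -0.02 over all genes. Orc6 was again among the lowest, with 97.4, 120.4 and 121 CPM in rescue and 184, 185, 178 and 169 CPM in wt libraries (log2 fold change -0.66 ± 0.09 (SE), adjusted p = 3.51e-07). Tipin had 169, 196 and 194 CPM in rescue and 288, 304, 283 and 302 CPM in wt libraries (log2 fold change -0.66 ± 0.12 (SE), adjusted p = 4.74e-05). Orc1 fell by 0.60, Rpa3 by 0.58 and Rpa2 by 0.51 on the log2 scale. The 2 genes that rose were Mcm2, with 526, 558 and 555 CPM in rescue and 489, 459.6, 476 and 433 CPM in wt libraries (log2 fold change 0.23 ± 0.07 (SE), adjusted p = 0.0126), and Timeless (log2 fold change 0.18 ± 0.06 (SE), adjusted p = 0.0184). Mcm10 and Pole were not called, with 95% intervals of -0.56 to 0.16 and -0.13 to 0.37. Without any single library the count of members called stayed between 19 and 26. The T cell markers summed to 2565 to 2991 CPM in rescue and 2209 to 2618 CPM in wt libraries, with 5 of 8 called higher. The CD8 and NK markers summed to 60.4 to 72.3 CPM in rescue and 36.6 to 48.3 CPM in wt libraries, without overlap. Of the 7, 2 were called higher and 1 lower. Their signs were mixed, with 3 positive and 4 negative, from -3.08 for Ncr1 to 2.11 for Eomes, so the sum does not follow every marker. The part of either list in the result was not tested.

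The transgene was then compared in the absence and presence of CD28, as the difference between rescue over CD28-/- and T1792tg/tg over wt at 24 h. All 43 differences were positive, with a median of 0.36 (log2), against 0.02 over all genes, and 6 were called higher and none lower. The share of all genes called was 1.33% higher and 0.784% lower. For Orc6 the log2 fold change with the transgene was 0.50 without CD28 and -0.08 with it (difference 0.58 ± 0.12 SE, adjusted p = 0.00494). For Rfc5 it was 0.42 without CD28 and -0.13 with it (difference 0.55, adjusted p = 0.00702). Chaf1b, whose rescue value alone was not called, had 0.23 without CD28 and -0.29 with it (difference 0.52, adjusted p = 0.0138). Prim2 (0.48), Rfc2 (0.36) and Pold3 (0.34) were the others called, and lost their call in 10, 12 and 9 of 15 fits that each left out 1 library. The count rested on few libraries and on the fit. It was 2 without 24 h rescue replicate 2 or 3, 3 without 24 h CD28-/- replicate 4, T1792tg/tg replicate 3 or 4, or wt replicate 1 or 2, 10 without T1792tg/tg replicate 2 and 12 without wt replicate 4. It was also 3 with a term for sex, 16 in DESeq2 and 24 when only the compared groups were fitted.

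The mature microRNAs of the cluster are shown because the next comparisons remove or add them. Sequences are from RefSeq (GRCm38.p6), with the seed (bases 2 to 8) in capitals.
miR-17-5p: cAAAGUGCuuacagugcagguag
miR-20a-5p: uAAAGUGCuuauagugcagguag
miR-18a-5p: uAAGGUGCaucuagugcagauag
miR-19a-3p: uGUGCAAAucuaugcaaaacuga
miR-19b-3p: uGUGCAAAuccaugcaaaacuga
miR-92a-3p: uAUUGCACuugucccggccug
By seed, miR-17-5p and miR-20a-5p form a family, as do miR-19a-3p and miR-19b-3p, while miR-18a-5p and miR-92a-3p each have their own. The reverse complement of a seed was found at least once in the 3' untranslated region, taken as the longest annotated, of 8 of the 43 members (18.6%), against 32.9% of 12508 tested genes. Members' regions were also shorter, with a median of 488 bases against 1148 over the tested genes. The sites were of the miR-17 family in Mcm3, Mcm7, Rpa2 and Chaf1a, of miR-18a in Gins2 and Rpa1, and of the miR-19 family in Pola1 and Pold3, with none for miR-92a. The sites of 3 members called in the comparisons with T1792delta/delta or T1792tg/tg cells are given with the matched bases in capitals (GENCODE vM21 transcripts, GRCm38).
Mcm3 site, chr1:20803158-20803180, minus strand: acccccagGCACTTTagtccagg
Rpa1 site, chr11:75300927-75300949, minus strand: cagtggtgGCACCTTtttgtctt
Pold3 site, chr7:100082595-100082617, minus strand: gcagtggcTTTGCACactgagct
Pole, Pole2, Chaf1b, Cdt1 and Rfc2, also called in these comparisons at 24 h, held no such site. Mcm3 at 24 h was called higher in T1792delta/delta and lower in T1792tg/tg cells, and Pold3 in naive cells the reverse. A match to a seed is a description and was not tested as a site.

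With CD28 in place, 5 of the 43 genes rose in T1792delta/delta cells against wt at 24 h and none fell, beside 7.77% of all genes higher and 8.47% lower, so the share of members called was near that of all genes. Of the 43 log2 fold changes 34 were positive, with a median of 0.07 (log2) and that of all genes near 0. For 8 members every T1792delta/delta library lay above every wt library (10.8% of all genes), and for none below. The summed level of the members at 24 h was 11439 ± 329.8 CPM in T1792delta/delta and 10674 ± 539 CPM in wt cells (SD, n = 4 each). Pole had 277, 246, 272 and 242 CPM in T1792delta/delta and 191, 204, 193 and 171 CPM in wt libraries, without overlap (log2 fold change 0.45 ± 0.11 (SE), adjusted p = 0.00567). Its partner Pole2 had 70.1, 63.6, 68.3 and 63.6 CPM in T1792delta/delta and 62.5, 54.1, 51.7 and 52.2 CPM in wt libraries (log2 fold change 0.27 ± 0.09 (SE), adjusted p = 0.0398). Mcm3 had 1106, 1039.8, 1134 and 1051 CPM in T1792delta/delta and 945, 907, 919.5 and 854 CPM in wt libraries, also apart (log2 fold change 0.26 ± 0.06 (SE), adjusted p = 0.00163). Chaf1b (0.24, adjusted p = 0.0417, groups overlapping) and Rpa1 (0.17, adjusted p = 0.0374) were the others. The count was 2 without 24 h T1792delta/delta replicate 1 or wt replicate 3 or 4, and 3 without T1792delta/delta replicate 3 or 4 or wt replicate 2. It was 2 with no filter on low counts and 8 when only the compared groups were fitted. Mcm3 and Pole remained called in every one of the 8 fits that left out 1 library, while Pole2 and Rpa1 lost their call in 6 of them and Chaf1b in 5.

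In T1792tg/tg cells 4 members fell at 24 h and none rose, beside 6.45% of all genes lower and 6.1% higher, again a share near that of all genes. Of the 43 log2 fold changes 38 were negative, with a median of -0.13 against -0.01 over all genes. For 9 members every T1792tg/tg library lay below every wt library (12.3% of all genes), and for none above. Cdt1 had 133, 137, 125 and 114 CPM in T1792tg/tg and 162, 155, 153 and 154 CPM in wt libraries (log2 fold change -0.29 ± 0.08 (SE), adjusted p = 0.00977). Mcm3 had 737, 779, 764 and 767 CPM in T1792tg/tg and 945, 907, 919.5 and 854 CPM in wt libraries (log2 fold change -0.25 ± 0.06 (SE), adjusted p = 0.00246). Rfc2 had 156, 152, 141 and 142 CPM in T1792tg/tg and 183, 176, 174 and 170.4 CPM in wt libraries (log2 fold change -0.25 ± 0.07 (SE), adjusted p = 0.0115). These 3 called genes were among the 9. Chaf1b had 79.2, 90.7, 80.5 and 80.2 CPM in T1792tg/tg and 111, 107, 96.8 and 89.8 CPM in wt libraries, overlapping through T1792tg/tg replicate 2 (log2 fold change -0.29 ± 0.08 (SE), adjusted p = 0.0167), and was not called with a term for sex (adjusted p = 0.0735). The licensing genes that were low in CD28-/- cells gave intervals of -0.24 to 0.09 for Orc6, -0.20 to 0.31 for Orc1 and -0.27 to 0.35 for Cdc6. The count was 2 without 24 h T1792tg/tg replicate 4 and 10 when only the compared groups were fitted. Mcm3 thus moved up in T1792delta/delta cells and down in T1792tg/tg cells, 2 comparisons that share the wt libraries. Chaf1b was called in the same directions, but its groups overlapped in both comparisons. It lost its call in 5 of 8 fits that each left out a library for T1792delta/delta and in 4 of 8 for T1792tg/tg. The CD8 and NK markers summed to 57.6 to 73.7 CPM in T1792tg/tg and 36.6 to 48.3 CPM in wt libraries, without overlap. Of the 7, 3 were called higher, 5 were positive and 2 negative, from -0.22 for Cd8b1 to 1.72 for Eomes. The T cell markers summed to 2030.0 to 2308 CPM in T1792tg/tg and 2209 to 2618 CPM in wt libraries, with 1 of 8 called higher and 3 lower, and the part of either list in the result was not tested.

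In naive T1792tg/tg cells, before stimulation, 10 members rose and 4 fell against wt, beside 10.5% of all genes higher and 12.6% lower. Mcm5 had 71.6, 72.9, 87.7 and 85.2 CPM in naive T1792tg/tg and 49.5, 50.2, 58.2 and 51.4 CPM in naive wt libraries, without overlap (log2 fold change 0.60 ± 0.09 (SE), adjusted p = 4.64e-06). Gins4 had 29.6, 28.3, 29.9 and 33.5 CPM in naive T1792tg/tg and 24.2, 20.5, 21.0 and 24.2 CPM in naive wt libraries (log2 fold change 0.43 ± 0.09 (SE), adjusted p = 0.00033). Rfc4 had 15.5, 14.3, 20.2 and 12.5 CPM in naive T1792tg/tg and 10.6, 10.9, 12.0 and 11.6 CPM in naive wt libraries (log2 fold change 0.47 ± 0.15 (SE), adjusted p = 0.0201). Rfc4 was not called without naive T1792tg/tg replicate 3 (0.32, adjusted p = 0.14), naive wt replicate 1 (adjusted p = 0.0508) or naive wt replicate 2 (adjusted p = 0.0508). Pold3, Rfc5, Rnaseh2a, Pola2, Prim2, Rfc2 and Fen1 also rose, by 0.28 to 0.43 on the log2 scale. Among the genes that fell, Orc1 had 1.75, 2.69, 2.79 and 2.19 CPM in naive T1792tg/tg and 2.79, 5.49, 3.93 and 3.10 CPM in naive wt libraries, low levels whose ranges nearly touched (log2 fold change -0.71 ± 0.19 (SE), adjusted p = 0.00562). Without naive wt replicate 2, its highest wt library, Orc1 was not called (-0.47, adjusted p = 0.0701). Chaf1b had 15.3, 16.0, 13.3 and 14.3 CPM in naive T1792tg/tg and 18.8, 21.6, 19.9 and 16.8 CPM in naive wt libraries (log2 fold change -0.39 ± 0.09 (SE), adjusted p = 0.002), and Cdt1 (-0.33) and Mcm3 (-0.19) fell too. Chaf1b, Cdt1 and Mcm3 were thus lower than wt in both states, Chaf1b at 24 h with overlapping groups. The CD8 and NK markers summed to 102 to 158 CPM in naive T1792tg/tg and 78.4 to 87.2 CPM in naive wt libraries, without overlap. Of the 7, all positive, 3 were called higher, and Eomes had the largest log2 fold change (1.45). The B cell markers summed to 327 to 551 CPM in naive T1792tg/tg and 183 to 369 CPM in naive wt libraries, with all 8 positive and none called. The part of either list in the result was not tested.

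In naive T1792delta/delta cells 2 members rose and 2 fell against wt, with 2.76% of all genes higher and 2.42% lower. Few members were called, a share not far above that of all genes. Mcm2 had 93.9, 95.2, 94.8 and 90.9 CPM in naive T1792delta/delta and 72.9, 62.8, 76.5 and 75.5 CPM in naive wt libraries, without overlap (log2 fold change 0.38 ± 0.07 (SE), adjusted p = 0.000775). Chaf1b (0.33, groups overlapping) rose, and Pold3 (-0.24) and Mcm4 (-0.22, groups overlapping) fell. The count of 4 was 1 when only the compared groups were fitted, and 2 without any of the 4 naive T1792delta/delta libraries or without naive wt replicate 2, 3 or 4. Red cell markers summed to 1179 to 5047 CPM in naive T1792delta/delta and 310.3 to 949 CPM in naive wt libraries. The myeloid markers summed to 225 to 323 CPM in naive T1792delta/delta and 154 to 204 CPM in naive wt libraries, without overlap, with 4 of 10 called higher. The part of these cells in the result was not tested.

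In naive CD28-/- cells 7 members were called higher than in wt and 1 lower, beside 7.42% of all genes higher and 7.34% lower. The count depended on several single libraries, naive CD28-/- replicate 1 among them. Without naive CD28-/- replicate 1, 1 member was higher and 4 were lower. Mcm2 and Timeless stayed called without it. Mcm2 had 108, 93.2, 93.8 and 89.5 CPM in naive CD28-/- and 72.9, 62.8, 76.5 and 75.5 CPM in naive wt libraries (log2 fold change 0.42 ± 0.07 (SE), adjusted p = 0.000118). Timeless had 33.3, 37.9, 35.8 and 36.9 CPM in naive CD28-/- and 45.6, 46.9, 46.9 and 47.4 CPM in naive wt libraries, and fell (log2 fold change -0.38 ± 0.06 (SE), adjusted p = 3.41e-05). For Timeless the naive difference was thus opposite in sign to that at 24 h. The other 6 called higher with all libraries were Rpa3, Pola1, Prim1, Fen1, Orc6 and Gins4, at 0.25 to 0.43. None of these was called without naive CD28-/- replicate 1, but other libraries mattered too. Orc6 lost its call in 7 of 8 fits that each left out a library, Rpa3 in 6, and Pola1 and Gins4 in 5 each. Rpa3 had 12.9, 10.0, 9.59 and 11.7 CPM in naive CD28-/- and 8.32, 8.17, 8.37 and 7.93 CPM in naive wt libraries (log2 fold change 0.43 ± 0.15 (SE), adjusted p = 0.0433). Pola1 had 26.2, 20.8, 25.5 and 24.4 CPM in naive CD28-/- and 15.6, 15.5, 21.5 and 22.2 CPM in naive wt libraries, overlapping, with replicate 1 the highest CD28-/- library for both genes. The count of 8 was 3 without naive CD28-/- replicate 4 or naive wt replicate 1, 4 without naive CD28-/- replicate 3 or naive wt replicate 3 and 5 without naive wt replicate 4. It was 4 with no filter on low counts and 2 when only the compared groups were fitted.

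Naive rescue cells had 4 members higher and 4 lower than naive CD28-/- cells, with 7.84% of all genes higher and 8.92% lower. The share of members called was thus near that of all genes in each direction. Chaf1b had 14.5, 16.6 and 12.8 CPM in naive rescue and 22.8, 19.7, 17.1 and 18.2 CPM in naive CD28-/- libraries (log2 fold change -0.41 ± 0.10 (SE), adjusted p = 0.00423). Pola2 had 48.7, 45.6 and 51.4 CPM in naive rescue and 36.6, 38.8, 41.1 and 40.2 CPM in naive CD28-/- libraries (log2 fold change 0.31 ± 0.06 (SE), adjusted p = 0.000672). Mcm5, Gins4 and Rnaseh2a were also called higher (0.30 to 0.36) although their groups overlapped. Without naive rescue replicate 2, Mcm5 (0.26, adjusted p = 0.0939) and Gins4 (0.21, adjusted p = 0.163) were not called, and Gins4 was not called without both libraries that stood apart either (adjusted p = 0.0646). With all libraries Pcna, Mcm4 and Mcm3 fell (-0.35 to -0.24). Without naive rescue replicate 2 the count was 1 higher and 6 lower, without naive CD28-/- replicate 1 it was 11 higher and 4 lower, and without both libraries that stood apart it was 4 higher and 5 lower. It was 1 when only the compared groups were fitted. The CD8 and NK markers summed to 136 to 153 CPM in naive rescue and at most 124 CPM in naive CD28-/- libraries, without overlap. Of the 7, 3 were called higher, 5 were positive and 2 negative, from -0.89 for Ncr1 to 1.26 for Eomes. Their part in the result was not tested.

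**Figure D4:**
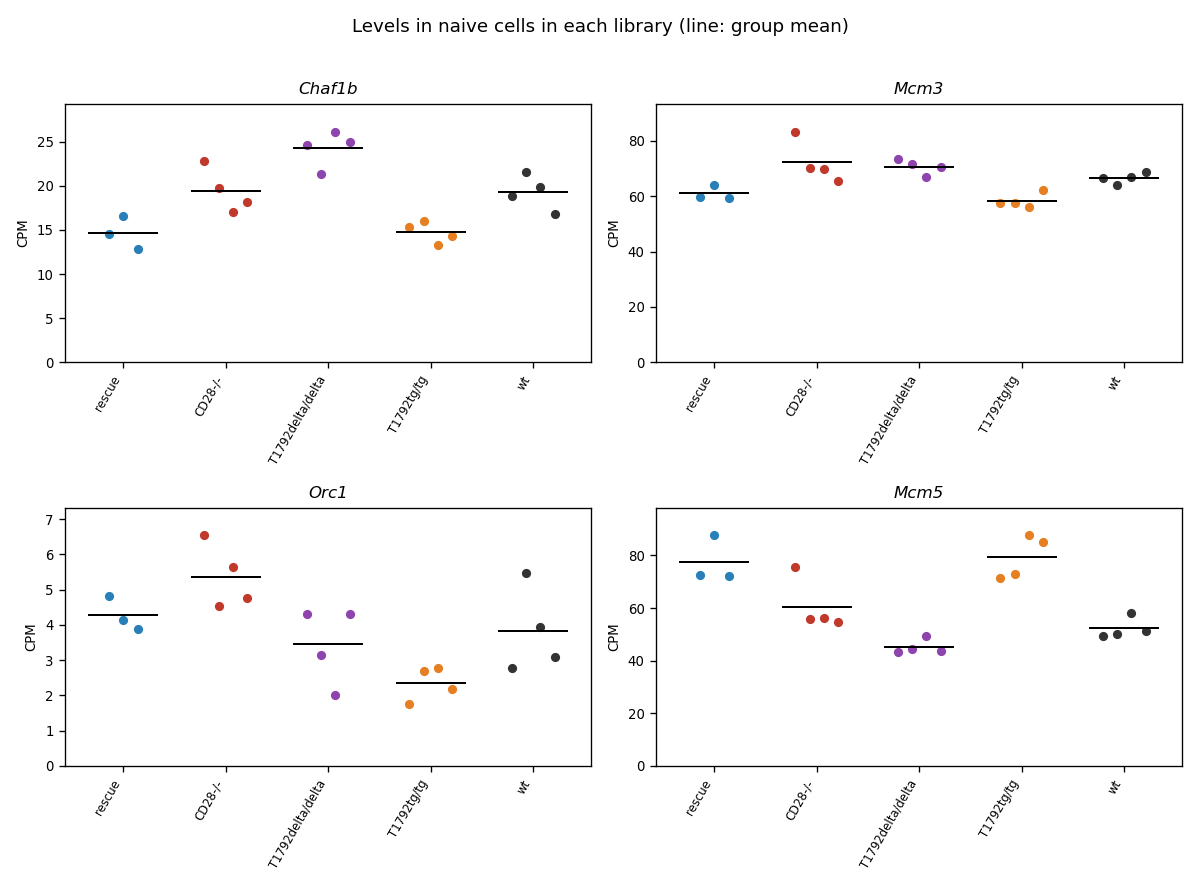
Levels in naive cells in CPM of Chaf1b, Mcm3, Orc1 and Mcm5. Points are libraries and lines are group means, for rescue (n = 3), CD28-/-, T1792delta/delta, T1792tg/tg and wt (n = 4 each). For Chaf1b the T1792tg/tg libraries lie at 13.3 to 16.0 CPM, below all wt libraries at 16.8 to 21.6 CPM, and for Mcm5 they lie at 71.6 to 87.7 CPM, above all wt libraries at 49.5 to 58.2 CPM.

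The responses to stimulation were then set against each other, as the log2 fold change of 24 h over naive in a genotype minus that in its comparator. The response of CD28-/- cells minus that of wt cells was called lower for 33 members and higher for 1, beside 22.4% of all genes lower and 20.8% higher. Without both naive libraries that stood apart it was lower for 28 and higher for 1. Orc1 had a response of 2.73 in CD28-/- and 4.27 in wt cells (difference -1.53 ± 0.21 SE, adjusted p = 4.58e-07). Orc6 (-1.42) and Rpa3 (-1.29) followed. Timeless was the exception, with a response of 2.30 in CD28-/- and 1.69 in wt cells (difference 0.61, adjusted p = 1.54e-07). Of the MCM genes, Mcm2, Mcm3, Mcm4 and Mcm5 had a smaller response (-0.38 to -0.28), while Mcm6 and Mcm7 were not called. For Mcm2 and Mcm5 the 24 h level itself was not called different from wt, as given above. Mcm2 was instead called higher in naive CD28-/- than in naive wt cells.

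The response of rescue cells minus that of CD28-/- cells was higher for 7 members and lower for none, beside 6.96% of all genes higher and 5.84% lower. Orc1 (0.79), Orc6 (0.73), Chaf1b (0.64), Pcna (0.56), Prim1 (0.55), Mcm4 (0.48) and Rfc1 (0.27) were called. Without naive rescue replicate 2 the count was 12, and without both naive libraries that stood apart it was 7, of which 6 were among these. The gene lost was Orc1, the largest of them (0.66, adjusted p = 0.0847). Rfc1 was not called with no filter on low counts (adjusted p = 0.0785), with only the compared groups (adjusted p = 0.0964), with the replicate number as a block within genotype (adjusted p = 0.0736) or in 10 of 14 fits that left out 1 library.

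The response of T1792tg/tg cells minus that of wt cells was lower for 13 members and higher for 1, with 7.41% of all genes lower and 8.59% higher. The gene that was higher was Orc1, with a response of 5.03 in T1792tg/tg and 4.27 in wt cells (difference 0.76, adjusted p = 0.019). The largest negative differences were those of Dscc1 (-0.64), Gins4 (-0.62), Rfc4 (-0.60) and Mcm5 (-0.59). Dscc1 was not called with the replicate number as a block within genotype (adjusted p = 0.0626) or in 9 of 16 fits that left out 1 library, and Rfc4 lost its call in 7 of them, while Gins4 stayed called in each. The count of 14 was 8 without naive T1792tg/tg replicate 3, and 9 without naive wt replicate 1 or 2, 24 h T1792tg/tg replicate 3 or 4, or 24 h wt replicate 1 or 2; without naive wt replicate 2 no member, Orc1 included, was called higher. For T1792delta/delta minus wt 2 members were higher, Prim2 (0.42) and Mcm4 (0.31), and 1 was lower, Mcm2 (-0.51), beside 3.15% and 2.95% of all genes. The share of members called was thus near that of all genes. Only Mcm2 was called when naive T1792delta/delta replicate 2, 3 or 4, naive wt replicate 3, 24 h T1792delta/delta replicate 1 or 24 h wt replicate 2, 3 or 4 was left out, and 6 were called without naive wt replicate 1. With the replicate number as a block within genotype, Mcm4 (adjusted p = 0.0603) and Prim2 (adjusted p = 0.0743) were not called.

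Other genes of the S phase programme were read as lists. Unless stated otherwise, their named genes are among those with the smallest p in CD28-/- against wt at 24 h. Among 29 other replication genes, 23 fell and 1 rose in CD28-/- cells at 24 h, and 15 rose and 1 fell in rescue against CD28-/- cells. Without 24 h rescue replicate 2 or 3 the rescue count was 8 higher and 1 lower. Chtf18, of an alternative clamp loader, gave log2 fold changes of -0.81 in CD28-/- against wt and 0.38 in rescue against CD28-/- cells, and the histone chaperone Asf1a, with the comparisons in the same order, -0.89 and 0.33. Pold4, the small subunit of polymerase delta, went the other way, with 0.99 in CD28-/- against wt and -0.48 in rescue against CD28-/- cells. Of 13 nucleotide supply genes, 12 fell in CD28-/- cells and none rose, among them Dut, which hydrolyses dUTP (-1.14), the CTP synthase Ctps (-0.83) and the deoxycytidine kinase Dck (-0.76). In rescue against CD28-/- cells 6 of the 13 rose, with Ctps at 0.39, while Dut (0.12) and Dck (0.13) were not called, a count of 6 that was 2 without 24 h rescue replicate 2 or 3.

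Of 13 E2F and pocket protein genes, 8 fell and 2 rose in CD28-/- cells, and 4 rose and 2 fell in rescue against CD28-/- cells. E2f7, a repressor of the family, gave -1.44 in CD28-/- against wt and 0.76 in rescue against CD28-/- cells, and E2f3, an activator, -0.93 and 0.50. The pocket protein Rbl2 (p130), which with E2F4 holds cell cycle genes silent in G0, gave 1.06 in CD28-/- against wt and -0.86 in rescue against CD28-/- cells. Of 12 G1 cyclins and inhibitors, 8 fell and 2 rose in CD28-/- cells, and 5 rose and 1 fell in rescue against CD28-/- cells. The cyclin E gene Ccne2 gave -1.71 in CD28-/- against wt and 0.86 in rescue against CD28-/- cells, and the phosphatase Cdc25a -0.85 and 0.62. In CD28-/- against wt the ends of this list's range were both inhibitors, Cdkn1a (-1.97) and Cdkn1b (1.35). All 16 mitosis genes fell in CD28-/- cells (median -1.32) and 10 rose in rescue against CD28-/- cells (median 0.75), a count of 10 that was 4 without 24 h rescue replicate 2. Cdk1, the mitotic kinase, gave -1.64 in CD28-/- against wt and 0.88 in rescue against CD28-/- cells, and Aurkb -1.57 and 0.96. The share of all genes called in these comparisons is given above, and the difference between lists was not tested.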

How the data were processed

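RNA of 38 libraries of mouse CD4+ T cells was sequenced from stranded libraries. The authors deposited counts of reads per gene, indexed by Entrez Gene identifier. Per the submitters' processing notes, the genome build was mm10 and the tools were STAR 2.5.2a, FastQC 0.11.5, edgeR 3.24.3 and R 3.5. The strand setting, annotation and counting tool were not given in the sources used here. Symbols were matched for 23968 of 24028 identifiers, and the others held 0.0749% of counts.

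The deposited counts were tested in edgeR 4.0.16 (R 4.3.3) with TMM scaling, filterByExpr over the 10 groups (13650 genes kept), 1 coefficient per group over all 38 libraries and the quasi-likelihood F test (glmQLFit, glmQLFTest), with Benjamini-Hochberg adjustment over all genes tested. The scripts were tested on simulated data. Errors are SDs over libraries, or SEs from the fit, and intervals are 95%. CPM are on TMM-scaled library sizes. Differences of responses are contrasts in the same fit. Depth was 19427291 to 28020721 counts per library.

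The members and the gene lists were chosen with earlier results of these data known. Values in every library are given for the members of each role with the smallest and largest p in CD28-/- against wt at 24 h, and for most of those with the largest and smallest changes called in each comparison. Alternatives were RLE size factors, DESeq2 1.42.0, no filter on low counts, a mean of at least 5 CPM, the compared groups alone, sex as a term, a replicate block and each library left out in turn, and, chosen after seeing the data, leaving out the 2 naive libraries that stood apart. Replicate numbers did not pair genotypes. Naive and 24 h libraries of the same number deviated together in wt (r = 0.122 to 0.342 over 4 pairs, across genes) and T1792delta/delta (r = 0.210 to 0.313), where the pairing is read from the data, since the labels do not state it.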

Additional observations from a re-analysis of the deposited data

Results flagged for a closer look

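Among 20 members, those with the smallest and largest p of each role, in 5 of 160 groups of 4 libraries (3.13%) a single library lay far from the other 3, where chance alone gives about 1 in 20. These were Cdt1 in naive wt replicate 2 (85.0 CPM), Gins1 in naive T1792tg/tg replicate 2 (1.45 CPM), Rfc4 in naive CD28-/- replicate 1 (18.8 CPM), Rfc4 in 24 h T1792delta/delta replicate 1 (105 CPM) and Chaf1b in 24 h T1792tg/tg replicate 2 (90.7 CPM).

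The response to stimulation differed between genotypes by the test of the difference itself (log2 fold change of 24 h over naive, edgeR's quasi-likelihood test). The shares of all genes called in each difference are given above. For CD28-/- minus wt 34 members were called, with Timeless at 0.61, Mcm4 at -0.28, Rpa1 at -0.30, Rpa3 at -1.29, Orc6 at -1.42 and Orc1 at -1.53 as the ends of the range. For T1792delta/delta minus wt 3 were called, Prim2 at 0.42, Mcm4 at 0.31 and Mcm2 at -0.51. That share was near that of all genes (3.15% higher and 2.95% lower). Prim2 lost its call in 14 of 16 fits that each left out a library and Mcm4 in 12, while Mcm2 kept its call in each. For T1792tg/tg minus wt 14 were called, among them Orc1 at 0.76, Pola2 at -0.36, Lig1 at -0.43, Rfc4 at -0.60, Gins4 at -0.62 and Dscc1 at -0.64. Of these, Lig1 lost its call in 11 of 16 fits that each left out a library, Dscc1 in 9 and Rfc4 in 7. For rescue minus CD28-/- 7 were called, among them Orc1 at 0.79, Orc6 at 0.73, Chaf1b at 0.64, Prim1 at 0.55, Mcm4 at 0.48 and Rfc1 at 0.27. Orc1 was not called there without the 2 naive libraries that stood apart (adjusted p = 0.0847). At 24 h the signed log2 fold change with the transgene was higher without CD28 than with it for 6 members, Orc6 by 0.58, Rfc5 by 0.55, Chaf1b by 0.52, Prim2 by 0.48, Rfc2 by 0.36 and Pold3 by 0.34 on the log2 scale.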

How the results depend on the processing

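Sign was followed only for the role genes in CD28-/- against wt at 24 h and the most extreme called genes of each comparison. None of these changed sign under any alternative, but most were chosen for large changes, which makes that unlikely. With single libraries left out, 970 of these gene values kept their status and 190 lost their call. Under the other alternatives 898 kept it, 56 lost their call and 1 gained it. All 43 members stayed called in the 5 responses to stimulation, and 37 at 24 h in CD28-/- against wt became 35 to 38 without single libraries. Without single libraries the other counts at 24 h were 2 to 5 in T1792delta/delta and 2 to 5 in T1792tg/tg against wt, 5 to 13 in rescue against CD28-/-, 19 to 26 in rescue against wt and 2 to 12 for the transgene without against with CD28. In naive cells they were 3 to 10 in CD28-/-, 2 to 3 in T1792delta/delta and 10 to 16 in T1792tg/tg against wt, and 7 to 15 in rescue against CD28-/-. For differences of responses they were 29 to 35 for CD28-/-, 1 to 6 for T1792delta/delta and 8 to 15 for T1792tg/tg minus wt, and 5 to 12 for rescue minus CD28-/-. Fitting only the compared groups gave 8, 10 and 30 at 24 h in T1792delta/delta against wt, T1792tg/tg against wt and rescue against CD28-/-, 2, 1 and 1 in naive CD28-/- against wt, T1792delta/delta against wt and rescue against CD28-/-, and 24 for the transgene without against with CD28. With no filter on low counts there were 2 in T1792delta/delta against wt at 24 h, 4 in naive CD28-/- against wt and 1 for the T1792delta/delta response. DESeq2 called 7 for that response and 16 for the transgene without against with CD28, which had 3 with the replicate number as a block and 3 with a term for sex. Naive CD28-/- against wt had 5 without the 2 libraries that stood apart. The cause of these shifts was not tested. The replicate block over all groups changed no other count by over 1.5 times. The block within genotype took the calls of Mcm4 and Prim2 from the T1792delta/delta response, as given above. RLE in place of TMM scaling moved the median of all genes by at most 0.07 (log2).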
